A study of Homo sapiens with 4 samples.

Results

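The HOXB cluster is the run of 10 HOXB genes on human chromosome 17, taken here by gene name: HOXB1, HOXB2, HOXB3, HOXB4, HOXB5, HOXB6, HOXB7, HOXB8, HOXB9 and HOXB13. They are 10 of the 20037 protein-coding genes that were measured in the same way. H3K27Ac, an acetyl mark found at enhancers and promoters in use, was measured in MOLM13, an established AML line with MLL1-r (the MLL-AF9 fusion), in 1 control library and 1 library of cells exposed to 500 nM of the Menin inhibitor SNDX-50469 for 16 h. The control is labelled as untreated, while the treatment description of the series names DMSO. Both cultures are the same line, so both carry the fusion. Chromatin was pulled down and then cut and tagged by the Tn5 transposase, and each library has its own list of broad peaks on hg38. The 2 input libraries were left out of what follows. Since each condition is a single library, differences between them could not be set against replicate error, and no p-value is given. In a bulk culture, fewer cells with the mark and less mark per cell cannot be told apart.

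HOX genes encode homeodomain transcription factors that set position along the body axis. Genes of a cluster lie in the order in which they are used along that axis, and in blood formation the early members are active in stem and progenitor cells and are shut down as cells mature. Menin tethers MLL1 and the MLL fusions to chromatin at HOX genes, and AML with MLL1-r is known for activity of the later HOXA genes, whereas AML with mutant NPM1 often has active HOXB genes too.

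HOXB1 was the only member whose promoter was matched among the RefSeq promoters (1 of 10 members), and it is shown for that reason. HOXB1 had no peak over this promoter in either list. Printed are the 250 bases before its start on the minus strand, chr17:48531012-48531261 of GRCh38.p14. HOXB1 is known to act on its own promoter together with PBX proteins, and the capitals mark the only match to TGATNNAT, the letters of a joint PBX and HOX site, which begins 125 bases before the start. Both strands were searched, and 6.47% of 35116 promoters of that length hold the motif. The match is a description of the letters and not a bound site.
HOXB1 promoter: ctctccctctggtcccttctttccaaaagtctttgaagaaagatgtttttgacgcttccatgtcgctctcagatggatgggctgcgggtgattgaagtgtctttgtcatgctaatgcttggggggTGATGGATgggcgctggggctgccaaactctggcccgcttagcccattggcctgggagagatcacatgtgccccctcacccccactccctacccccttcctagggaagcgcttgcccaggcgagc
The cluster also holds microRNA genes. The mature arms below are given because miR-10a and miR-196a are known to act on HOX mRNAs, and the capitals mark the seed, bases 2 to 8 of each. They share no seed. Neither was covered by a peak in either list, and the nearest control peak lay 8.27 kb from miR-10a-5p and 43.5 kb from miR-196a-5p.
hsa-miR-10a-5p (chr17:48579904-48579926, minus strand): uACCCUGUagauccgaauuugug
hsa-miR-196a-5p (chr17:48632532-48632553, minus strand): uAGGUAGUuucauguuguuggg

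HOXB3 was the single HOXB gene with an H3K27Ac peak in control MOLM13 cells, and no HOXB gene had one following SNDX-50469 treatment. The window of a gene is its annotated body with 1 kb on both sides. The HOXB3 window held 3 control peaks covering 637 of 43372 bp, or 1.47%, and 0 SNDX-50469 peaks. The other 9 members had no covered position in either list. Thus 1 of 10 members had a control peak, where 75.1% of all protein-coding genes had one, and 0 of 10 had a SNDX-50469 peak, where 47.9% had one. HOXB genes are short, with a median length of 3366 bp, and a short window has less room for a peak. Among genes of at most 10 kb, 56.6% had a control peak and 31.0% a SNDX-50469 peak, against none of the 9 members of that length in either list. The members are neighbours, and the HOXB4 window lies wholly inside that of HOXB3, so they do not count as 10 separate observations.

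The gene body of HOXB3, a factor of early blood progenitors and of the hindbrain, held 2 of the 3 control peaks. They lay 1753 and 1178 bp inside its outermost 5′ end, at 48588169 to 48588488 and at 48588851 to 48589063. The first was 320 bp wide with a fold over background of 2.67, and the second was 213 bp wide with a fold of 2.72. The third was 104 bp wide, at 48547982 to 48548085, and lay 785 bp past the 3′ end of HOXB3, inside the antisense RNA gene HOXB-AS1. HOXB3 spans 41372 bp in the annotation used here and encloses HOXB4. Which exons or introns the peaks fall in was not determined, since the annotation with exons used here is of another build.

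All 3 were among the weakest peaks of the control list. Their −log10 q values were only 1.16, 1.17 and 1.24. Their −log10 p values were 2.68, 2.69 and 2.77, while the smallest in the whole list was 2.68 and its median was 3.14. The peak in HOXB-AS1 stood at that smallest value together with 16.3% of the list, and 16.9% and 22.6% of the list were weaker than the peaks in HOXB3. If a fold is taken to be pileup + 1 divided by background + 1, their mean pileups were 4.00, 4.02 and 4.11 fragments over a background of 0.877 fragments per position. A pileup of 4 fragments was the least that entered the control list, and 5 the least that entered the SNDX-50469 list, whose background was 0.735. No peak of the SNDX-50469 list had a −log10 p under 3.93. None of the 3 HOXB peaks, nor any of the 8 control peaks within the cluster and 100 kb on both sides, reached that value, which 18.5% of all control peaks did. No peak with so low a −log10 p is listed for SNDX-50469 at any locus, so the absence of the HOXB3 peaks there is not a measure of loss. The covered length at HOXB3 was lower after treatment, as at 97.9% of the 15042 genes with a control peak, and none of it was kept, as at 47.2% of them.

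**Figure D1:**
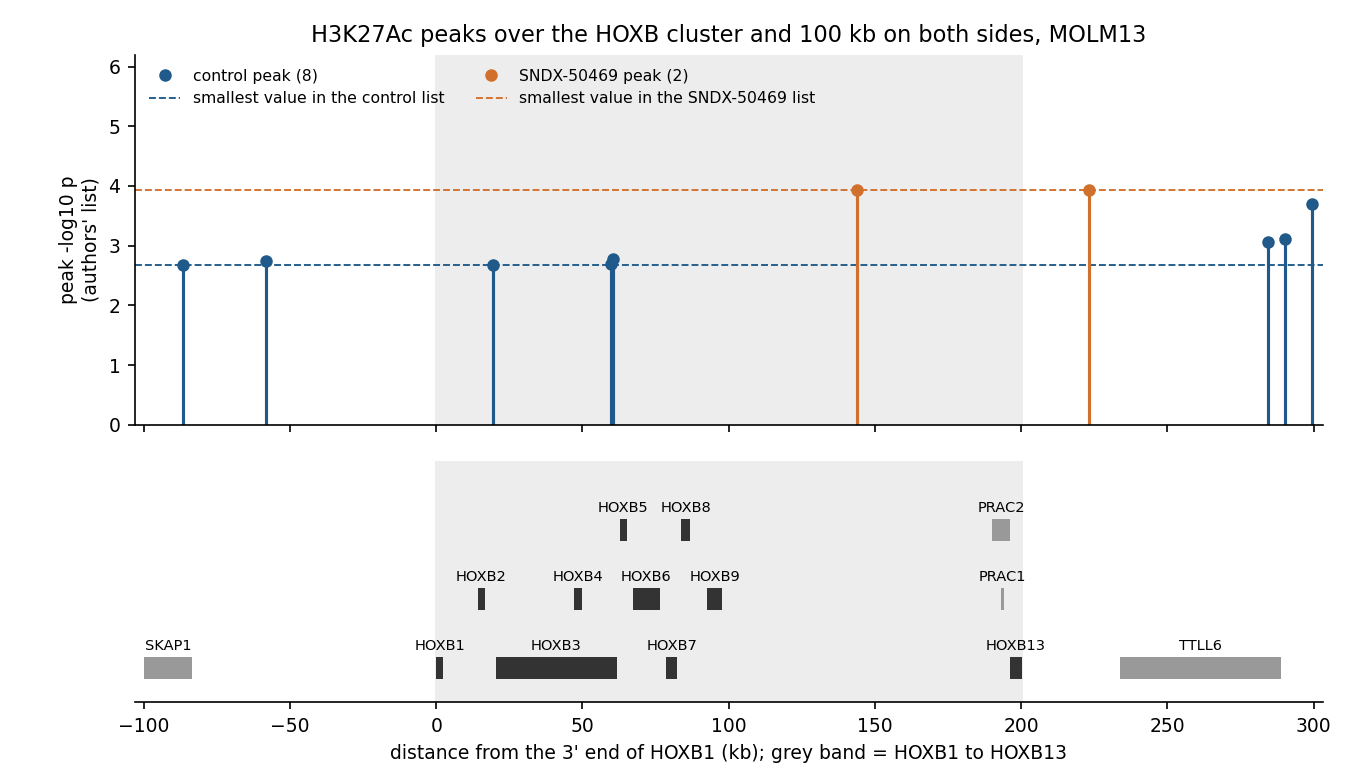
Each point is an H3K27Ac peak of the control (blue) or SNDX-50469 (orange) list, placed by its distance in kb from the 3′ end of HOXB1 and by its −log10 p; dashed lines show the smallest value in each list, and the lower panel shows protein-coding genes, HOXB in black. The 3 control peaks of the cluster sit at 2.68 to 2.77, below the SNDX-50469 line at 3.93, and the SNDX-50469 peak of the cluster lies between HOXB9 and HOXB13.

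The members differed in how far their 5′ ends lay from the nearest peak. In control cells the distance was 1178 bp at HOXB3, 2873 bp at HOXB2 and 4716 bp at HOXB5. HOXB2 is a hindbrain factor that HOXB1 controls, and HOXB5 marks long-lived stem cells in mouse bone marrow. HOXB4, which expands blood stem cells when it is overexpressed, lay 9819 bp from a peak. At HOXB6, studied in early myeloid and erythroid cells, the distance was 15923 bp, and at HOXB1 it was 16971 bp. It was 21954 bp at HOXB7, 26229 bp at HOXB8 and 37295 bp at HOXB9. For HOXB3 and for HOXB5 to HOXB9 the nearest peak was the same, the one ending at 48589063. The rise from HOXB5 to HOXB9 is therefore the spacing of the genes and no difference in their H3K27Ac. HOXB1 and HOXB2 likewise shared the peak in HOXB-AS1. HOXB7 is raised in several carcinomas, and HOXB9 helps to pattern the thorax. HOXB8 holds myeloid progenitors in an immature state when it is overexpressed. HOXB13, a factor of prostate and hindgut, was the farthest at 84141 bp, and its nearest control peak lay outside the cluster, at TTLL6.

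The median over the members was 16.4 kb, whereas the median over 19121 protein-coding genes with a known strand was 0.11 kb. Of those single genes, 23.7% lay 16.4 kb or more from a peak, which describes genes one by one and not the median of 10 neighbours. After SNDX-50469 the distances ran from 22783 bp at HOXB13 to 127202 bp at HOXB2, with a median of 72.9 kb against 17.49 kb over all genes, and 26.7% of genes lay at least as far as the HOXB median. The distances of HOXB2 to HOXB9 were all measured to the single SNDX-50469 peak of the cluster. HOXB13 was the only member with its nearest SNDX-50469 peak closer than its nearest control peak. Both of these peaks lay beyond the HOXB13 window, so the order says nothing of HOXB13 itself.

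**Figure D2:**
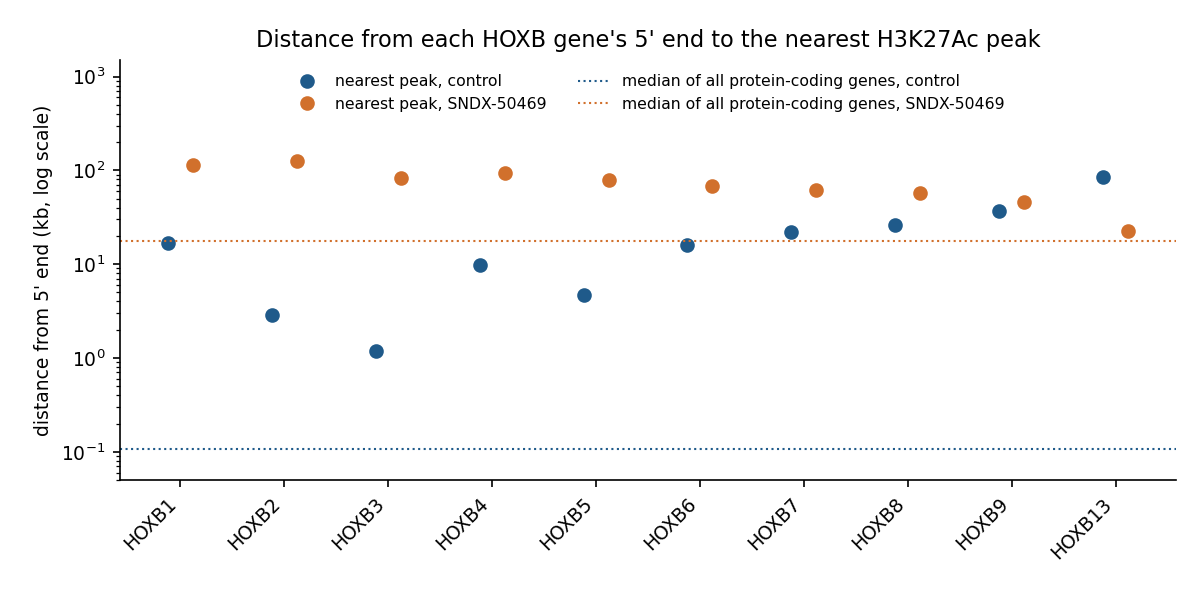
For each HOXB gene the points give the distance in kb (log scale) from its outermost 5′ end to the nearest H3K27Ac peak in control (blue) and SNDX-50469 (orange), and dotted lines give the median of all protein-coding genes. All 10 members lie above the line of their own list, from 1178 bp in control and from 22783 bp after treatment.

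The other 14 genes annotated between HOXB1 and HOXB13 are mostly non-coding. The share of all non-coding genes with a peak was not counted, so the counts here cannot be called few or many. Of these 14, HOXB-AS1 had a control peak, with 104 bp covered, which is also counted for HOXB3. LINC02086 had a SNDX-50469 peak, with 140 bp covered. Neither had a peak in the opposite list. HOXB-AS3, an antisense RNA gene that begins beside the 5′ end of HOXB3 and runs past HOXB5 and HOXB6, had none in either list. Its 5′ end lay 1357 bp from the nearest control peak. HOXBLINC, a non-coding RNA gene of the early HOXB region, also had none. The same held for HOXB-AS2, HOXB-AS4, LINC03057, 3 microRNA genes (MIR10A, MIR196A1 and MIR3185), 2 pseudogenes (RPL9P28 and COX6B1P2), and PRAC1 and PRAC2, small genes of prostate and colon beside HOXB13.

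Over the whole cluster, from 48528526 to 48728750, control peaks covered 637 of 200225 bp (0.318%) and SNDX-50469 peaks 140 bp (0.0699%). With one −log10 p minimum for both lists these lengths were 0 bp in control and 140 bp after SNDX-50469. That minimum is the smallest value of the SNDX-50469 list, 3.93, so it could remove control peaks only. The turned order is therefore no sign of more H3K27Ac after treatment. Over chromosome 17, from its first to its last peak, control peaks covered 11.8% and SNDX-50469 peaks 1.15%. The 3 control peaks lay between HOXB1 and HOXB9, where 97833 bp held 0.651% of covered length. None lay in the 98404 bp between HOXB9 and HOXB13. That interval held the single SNDX-50469 peak, 140 bp wide at 48672311 to 48672450 in LINC02086, with a fold of 3.46. Its −log10 p of 3.93 is the smallest in the list, a value shared by 23.3% of the SNDX-50469 peaks, and the nearest control peak lay 83.2 kb away. No position of the cluster was covered in both lists, so 0% of the control covered length was kept.

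From 48589064 to 48812890 the control list had no peak over 224 kb. This stretch held 8 whole protein-coding genes, namely HOXB5, HOXB6, HOXB7, HOXB8, HOXB9, PRAC2, PRAC1 and HOXB13. Of 245851 stretches between neighbouring control peaks, 2092 were longer (0.851%) and 55 held more protein-coding genes. It was the longest control stretch at the cluster, so this rank does not describe the cluster as a whole. With the genome cut into 14961 pieces as long as the cluster, 41.6% had no more control covered length than the cluster. The genes at the HOXB1 side lay in shorter stretches, HOXB1 and HOXB2 within 77.7 kb and HOXB4 within 40.1 kb. In the SNDX-50469 list, the stretch from 48416395 to 48672310, 256 kb long, held the 9 genes from HOXB1 to HOXB9. Of the stretches of that list, 4.46% were longer and 104 held more protein-coding genes.

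The flanks were almost as bare. In the 100 kb below HOXB1, which reach into SKAP1, an adaptor gene of T cells, 2 control peaks covered 396 bp and no SNDX-50469 peak was listed. In the 100 kb beyond HOXB13, which hold TTLL6, a tubulin-modifying enzyme gene, 3 control peaks covered 809 bp and 1 SNDX-50469 peak covered 358 bp. With the common minimum these flank lengths were 0 bp in control and 358 bp after SNDX-50469. The strongest of these 5 control peaks had a −log10 p of 3.70. None of the flank length covered in control was kept. SKAP1 as a whole held 9 control peaks over 0.771% of its window and 1 SNDX-50469 peak over 0.0934%. TTLL6 and LOC105371813, which overlap, shared a control peak of 98 bp, and the SNDX-50469 peak of the flank fell in the window of LOC105371812. The other 5 genes reaching into the flanks (LOC101927166, LOC124904019, LOC105371808, LOC105371811 and RN7SL125P) had no peak in either list. Farther out, a control peak whose −log10 q was 5 or more was first met 109 kb beyond HOXB13, at CALCOCO2, and 415 kb below HOXB1, at SNX11.

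**Figure D3:**
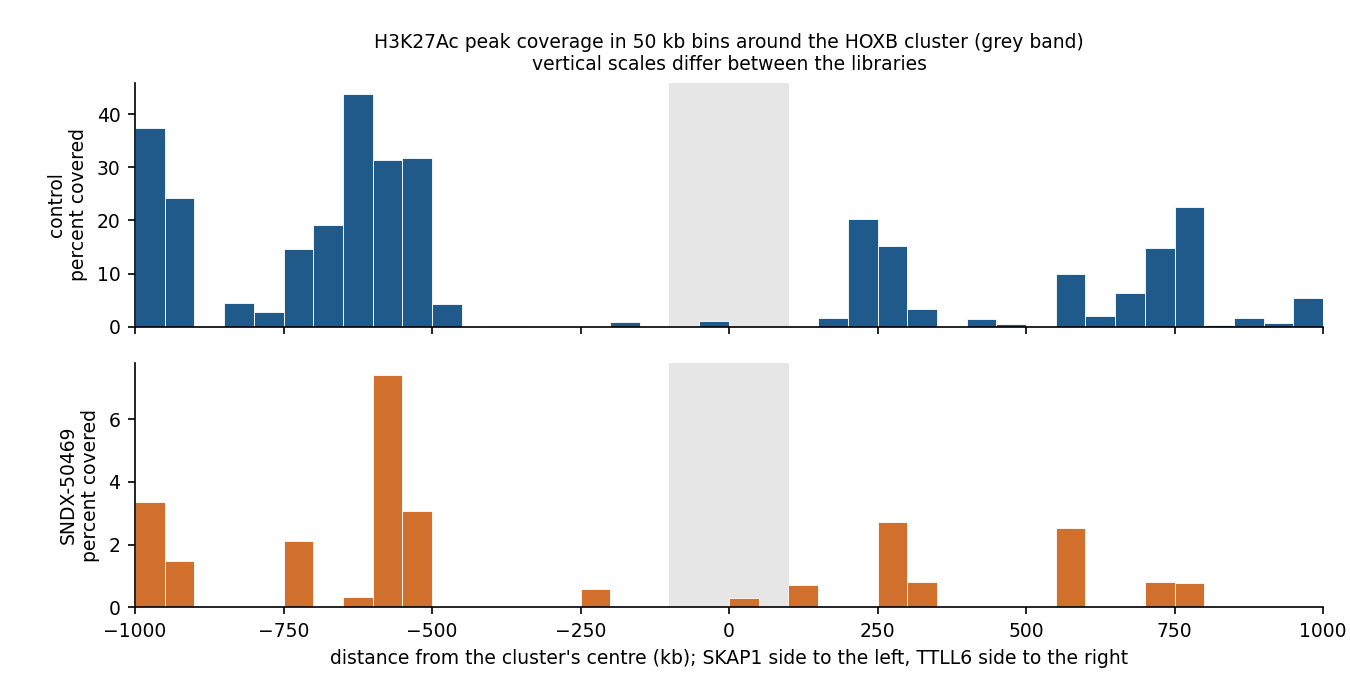
Bars give the percent of each 50 kb bin covered by H3K27Ac peaks within 1000 kb on both sides of the cluster's centre, control above and SNDX-50469 below on separate vertical scales, with the cluster in grey. The 8 bins within 200 kb of the centre reach at most 1.62% in control and 0.716% after treatment, whereas the 32 bins farther out reach 43.7% and 7.42%. The control medians are 0.104% and 3.79%. Bare bins also occur farther out: 6 of the 32 hold no control peak, among them those from 350 to 200 kb to the left, and 20 hold no SNDX-50469 peak.

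The HOXA, HOXC and HOXD clusters, measured alike, set the HOXB values in context, and these differences were not tested. HOXA was the covered one. Control peaks covered 25.3% of its length and lay in the windows of 6 of its 11 genes, and SNDX-50469 peaks covered 12.9%. HOXA3 and HOXA4 are among these genes through the same 92 bp peak, since the HOXA3 window encloses that of HOXA4. At HOXA9, the HOX gene best known in AML with MLL1-r, 82.1% of the window was covered in control and 74.3% after treatment. The strongest control peak of HOXA had a −log10 p of 11.62, above 99.1% of the control list. HOXC was sparsely covered, with 0.675% covered in control by 5 peaks, 4 of which are shared by the overlapping windows of HOXC4, HOXC5 and HOXC6. HOXD had no control peak. After treatment HOXC and HOXD had 1 and 2 peaks, which covered 0.0836% and 0.265% of their length. Of the direct paralogues of HOXB3, HOXA3 had a control covered length of 92 bp and HOXD3 of 0 bp, against 637 bp at HOXB3. Of those of HOXB4, which had 0 bp in a window of 4844 bp, HOXA4 had the same 92 bp as HOXA3, in 4233 bp. HOXC4 had 685 bp in 41143 bp and HOXD4 0 bp.

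**Figure D4:**
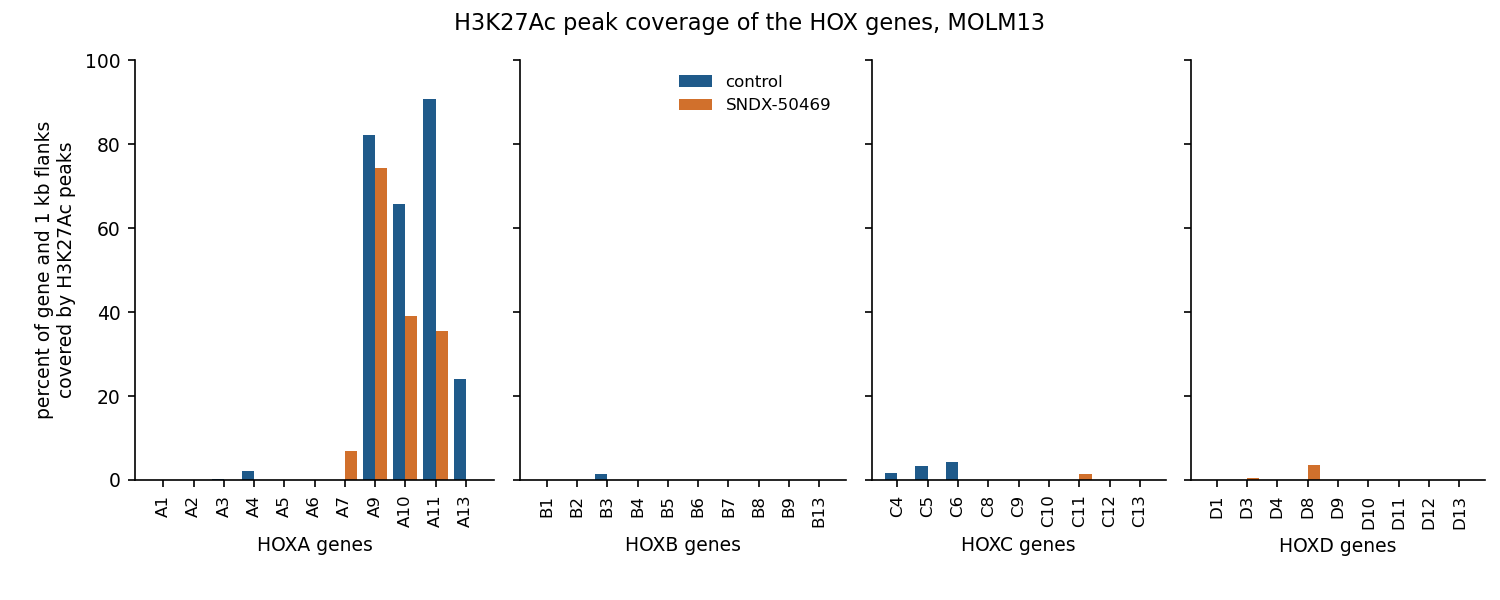
Bars give the percent of each HOX gene's window (gene body and 1 kb on both sides) covered by H3K27Ac peaks in control (blue) and SNDX-50469 (orange) MOLM13 cells, by cluster, with no error bars because each condition is 1 library. HOXB3 at 1.47% in control is the only visible HOXB bar, whereas HOXA9 stands at 82.1% and 74.3%.

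Genes that act with HOX proteins were covered at other loci in the same libraries. The HOX cofactor genes MEIS1, MEIS2 and PBX3 had control peaks, covering 66.8% of the MEIS1 window, 50.4% at PBX3 and 2.13% at MEIS2. Each of them had a shorter covered length after treatment, with 2.23% at MEIS1, 2.19% at PBX3 and 0.488% at MEIS2. The same was true of 97.9% of the 15042 genes with a control peak. KMT2A, MEN1 and PSIP1, which encode MLL1, Menin and the LEDGF protein that joins them on chromatin, had control peaks over 6.97%, 31.7% and 3.41% of their windows, and KMT2A and PSIP1 had 1 SNDX-50469 peak each. The label of a myeloid line was checked on 10 myeloid marker genes, all of which had control peaks over 29.3% to 100% of their windows, CEBPA being the highest. Among markers of other lineages, ALB, MYOD1, KRT5, NEUROD1 and SOX2 had no control peak. CD3E and MS4A1, markers of lymphoid cells, were covered over 41.1% and 42.9%, CDH1 over 18.3%, and GATA4 over 1.14%. After treatment all 10 myeloid markers had a shorter covered length, which is near the share over all genes with a control peak (97.9%). A SNDX-50469 peak lay in the windows of 9 of them, where 47.9% of all genes had one, with 86.9% of the window covered at CEBPA but 0.378% at CD33, 1.37% at PTPRC and none at ITGAM.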

How the data were processed

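Each of the 2 H3K27Ac libraries came with 1 deposited list of broad peaks, not pooled. The submitters' processing notes list Trim Galore 0.6.5, Bowtie2 2.3.4.2, Picard 2.9.0 and MACS2 2.1.2 with build GRCh38, while the study's methods name TopHat2 and hg38. Whether an input library entered the calling is not given in the sources used here. For every peak the authors deposited a fold ratio over the background of its own library, a −log10 p, a −log10 q and a score, which is about 10 times the −log10 q and was not used. The files hold no read totals, so depth is known only through the recovered background, and values were not scaled between the lists.

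Covered positions were counted with Python 3.11.15 and numpy 2.4.6, after the interval counting was tested on simulated data. Genes are those of RefSeq on GRCh38.p14, the same build as hg38. Strand came by symbol from GENCODE on GRCh37, from which no coordinate was used. A gene was taken with 1 kb and the cluster with 100 kb on both sides. Length was kept where both lists covered it. Pileup and background were recovered from the weakest peak of each list, taking p to be a Poisson tail above the pileup. All members and all genes annotated within 100 kb were named, with fixed lists of cofactors and markers, some members of which are not reported here. The members and lists were chosen with earlier results of these data known. The alternatives were other windows, minimum −log10 q values of 2 and 5, a common −log10 p, an equal covered length, and other limits for the cluster, its flanks and a kept peak.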

Additional observations from a re-analysis of the deposited data

How the results depend on the processing

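The count of HOXB genes with a SNDX-50469 peak was 0 under each of the 7 alternatives that apply to it. Only the window with 5 kb on both sides could have raised it. The others narrow the window, drop peaks or leave the SNDX-50469 list unchanged, so their outcome was fixed. Without a SNDX-50469 peak no control length can be kept, and none was under any alternative. The number with a control peak was 1 over the gene body alone. It was 3 with 5 kb on both sides, where the peaks near HOXB3 also counted for HOXB2 and HOXB5, and the number with a lower covered length after treatment was then 3 as well. Both numbers were 0 within 1 kb of the 5′ ends, at a −log10 q of at least 2 or 5, at the common −log10 p, and with the control list trimmed to the covered length of the SNDX-50469 list. Under the last 4 settings the control covered length of the cluster was 0 bp and that of the flanks 0 bp, except for 340 bp in the flanks at a −log10 q of at least 2. The SNDX-50469 covered length stayed at 140 bp in the cluster and 358 bp in the flanks at the common −log10 p and with the trimmed control list. Both settings could remove control peaks only. The order of the conditions, 637 against 140 bp and 1205 against 358 bp as deposited, turned there. The SNDX-50469 covered length was 0 bp in cluster and flanks at a −log10 q of at least 2 or 5. In the cluster it was also 0 bp when ended at HOXB9. With 50 kb flanks the order turned too, with 0 bp in control and 358 bp after SNDX-50469. The kept share has no value where the control covered length is 0. No paired analysis was possible because there is a single H3K27Ac library in each group. The pileup cutoffs of 4 and 5 fragments set the depth limit: weaker H3K27Ac over the HOXB genes would not be listed, so a gene without a peak is not shown to lack the mark.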

Other observations

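Cut into stretches as long as the HOXB cluster (200225 bp), the genome from the first to the last control peak of each chromosome gave 14961 stretches, with a median of 2388 bp covered in control. In 41.6% of them the control covered length was at most the 637 bp of the cluster. Among the 202 stretches touched by at least 10 protein-coding genes the median was 46536 bp, and 19 (9.41%) had at most the covered length of the HOXB cluster. For SNDX-50469, at most the 140 bp of the cluster was covered in 53.0% of all stretches, in 40.1% of the 414 on chromosome 17 and in 14.4% of the gene-rich ones. For control the share on chromosome 17 was 23.2%. The minimum of 10 genes was chosen after the data were seen, and the stretches were not compared by a test.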
